A study of Homo sapiens with 6 samples.

Results

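The network around MYC comprises 10 genes here, namely MYC, MAX, MXD1, MXD3, MXD4, MXI1, MNT, MGA, MLX and MLXIP. They were taken by symbol from a table of 37871 Ensembl genes, each symbol matched 1 identifier, and all 10 had enough counts to be tested among the 19170 genes that did. The RNA came from T24, an established human line of bladder carcinoma grown in DMEM, as 3 libraries given vehicle (the solvent control) and 3 libraries given LPS plus nigericin. LPS, from the bacterial wall, is sensed by TLR4. Nigericin lets potassium leave the cell and can thereby activate the NLRP3 inflammasome. Dose, length of treatment and the nature of the vehicle were not stated in the labels. The labels name no group that received either agent alone, so an effect of LPS cannot be told apart from an effect of nigericin. Separate cultures are not mentioned in the labels, so p-values reflect the spread between these libraries only, which may be technical. The study is about epithelial caspase-1 and neutrophil-dominated inflammation, and its RNA comparison addresses how this treatment alters the transcripts of tumour cells.

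The proteins of this network are transcription factors that bind DNA in pairs through a basic helix-loop-helix leucine zipper. MAX is the shared partner. MYC with MAX activates genes of growth, ribosome production and proliferation, while the MXD proteins, MXI1 and MNT with MAX recruit the SIN3 corepressor to the same DNA element, the E-box CACGTG. MGA also pairs with MAX and belongs to a repressive Polycomb complex. MLX is a MAX-like partner for some of the MXD proteins and MNT, and for MLXIP, also called MondoA, a sensor of glucose metabolites. MYC is frequently amplified or overexpressed in carcinomas, those of the bladder among them, and MYC RNA is short-lived.

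After LPS plus nigericin, MXD1, MXI1 and MGA were higher and MYC, MXD3, MXD4, MLX and MAX lower, while MNT and MLXIP did not pass the threshold. Thus 3 members rose and 5 fell, and 8 of 10 were called. Of all tested genes, 55.3% were called, 28.9% higher and 26.4% lower, so this count alone does not set the members apart. Called means a Benjamini-Hochberg adjusted p under 0.05 over all 19170 genes in edgeR's quasi-likelihood test, and every adjusted p below is from that test unless another is named. For 9 of the 10 members all treated values lay on the same side of all vehicle values, against 67.0% of all tested genes. The median log2 fold change of the 10 was -0.28, against 0.00 over all tested genes. Levels are CPM, counts per 1000000 of the TMM-scaled library total, with SD over n = 3 libraries per group. Because these are bulk libraries, a change in every cell cannot be told apart from a larger change in some of the cells.

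Library totals ran from 66180407 to 89152224 counts, and the lowest count of any member in any library was 115. The GC content of the counted RNA differed between the groups. The source of this difference was not tested. The labels name companies for RNA extraction without stating which one prepared which library. Each library's log2 CPM, relative to the mean of the 6, was correlated with transcript GC content across 13867 protein-coding genes, at Spearman values of 0.199 to 0.625 in vehicle and -0.556 to -0.443 after treatment (genes are not independent replicates). A second fit therefore removed each library's trend with GC content and length, at the price of removing treatment effects that follow them too, and its value is given for the members and, for the other genes whose change is printed from the lists or as overlapping neighbours, where it changes a call or a direction or moves the fold by more than 1.5 times. Of the 8 epithelial markers 6 were detected at 1 CPM or more, with the keratins KRT7, KRT8, KRT18 and KRT19 abundant, but CDH1 was at or near 0. Of the 7 urothelial markers 2 were detected at 1 CPM or more, and the uroplakins UPK1A, UPK1B and UPK3A were at or near 0. The detected ones were PPARG, from 83.5 ± 3.88 to 40.6 ± 2.89 CPM, and GATA3, from 18.3 ± 3.09 to 11.2 ± 0.306 CPM, both called lower. The epithelial markers summed to 6620 to 9660 CPM in vehicle and 3610 to 4650 CPM after treatment, and the 3 mesenchymal markers to 2640 to 4030 and 6660 to 9100 CPM. FN1 made up most of the mesenchymal sum, at 3160 ± 694 and 7750 ± 1210 CPM. CDH2 rose (log2 fold change 1.78, or 1.14 in the second fit), but VIM did not pass (-0.25, or 0.04). KRT7, KRT8, KRT18 and KRT19 were called lower, while EPCAM and KRT17 did not pass (0.59 and 0.26). In the second fit KRT7 did not pass (0.12, edgeR adjusted p = 0.146) and KRT17 was called higher (1.1, edgeR adjusted p = 1.43e-05). Of the 9 leukocyte markers 6 were listed, summing to 7.77 to 16.2 CPM in vehicle and 5.05 to 7.80 CPM after treatment, with the defining marker PTPRC at 0.036 CPM or less. The part of these shifts in the results below was not tested.

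**Figure D1:**
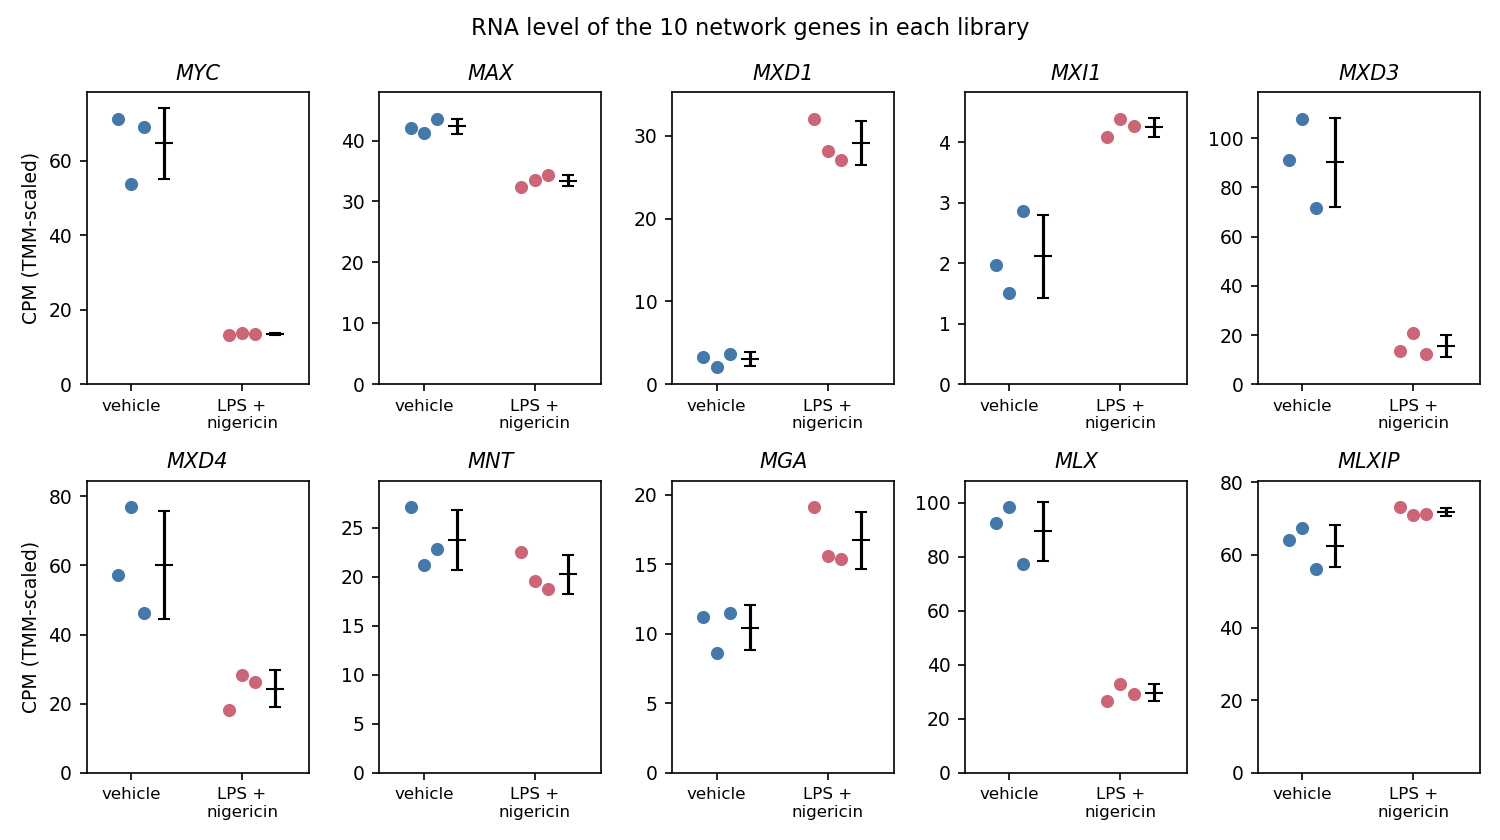
RNA level of each network gene in CPM (vertical axis, starting at 0, scaled separately in each panel) in the 3 vehicle libraries (blue) and the 3 LPS plus nigericin libraries (red), with the mean and SD in black. MXD1 sits at 2.14 to 3.70 CPM in vehicle and 27.1 to 32.1 CPM after treatment, MYC falls from 53.9 to 71.4 CPM to 13.3 to 13.8 CPM, and the MNT values overlap.

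MYC, the activating member, was at 71.4, 53.9 and 69.1 CPM in the vehicle libraries and at 13.3, 13.8 and 13.6 CPM in the treated libraries. The lowest vehicle value lay far above the highest treated value, and the treated libraries were nearly alike. The mean of MYC fell 4.78-fold, from 64.8 ± 9.52 CPM in vehicle to 13.6 ± 0.238 CPM after treatment (change of -2.26 on the log2 scale, SE 0.145, edgeR adjusted p = 4.46e-05). It ranked 745 from the bottom of the 19170 tested genes by log2 fold change. With the GC and length correction the value was -1.99. MYC (ENSG00000136997, chromosome 8, plus strand, 127735434 to 127741434 in GENCODE 29 on GRCh38) shares no exon stretch of 50 bases with another annotated gene. Its paralogs were near 0. MYCN was at 0 in 5 libraries and at 0.0238 CPM in treated library 3, and MYCL was at 0.118 ± 0.0510 CPM in vehicle and 0.187 ± 0.115 CPM after treatment (edgeR adjusted p = 0.484).

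MAX, the partner that MYC, the MXD proteins, MNT and MGA share, was at 42.0, 41.3 and 43.6 CPM in vehicle and at 32.4, 33.6 and 34.3 CPM after treatment. The groups did not overlap, and MAX had the narrowest relative spread of any member in vehicle, with a coefficient of variation of 2.75%. The fall was small, 1.26-fold (log2 fold change -0.34, SE 0.108, edgeR adjusted p = 0.0284). The call did not hold without vehicle library 1 or without treated library 1, 2 or 3 (edgeR adjusted p = 0.0962, 0.0929, 0.0774 and 0.0819, log2 fold changes -0.35, -0.32, -0.35 and -0.36). It was also lost with no count filter and with the replicate number as a block (edgeR adjusted p = 0.0528 and 0.0661). With the GC and length correction it held, at -0.36 (edgeR adjusted p = 0.00478). MAX (ENSG00000125952) lies on the minus strand of chromosome 14, at 65006174 to 65102695.

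MXD1, also known as MAD1, a MYC antagonist that is typically induced as cells leave the cycle and differentiate, was at 3.29, 2.14 and 3.70 CPM in vehicle and at 32.1, 28.2 and 27.1 CPM after treatment. Every treated library was several times above every vehicle library. The rise was 9.56-fold, with means of 3.04 ± 0.808 and 29.1 ± 2.61 CPM (3.26 on the log2 scale, SE 0.226, edgeR adjusted p = 5.74e-05), the largest change of the 10 members in either direction. MXD1 ranked 565 from the top of all tested genes. With the GC and length correction the rise was smaller, at 2.43 on the log2 scale. MXD1 (ENSG00000059728, chromosome 2, plus strand, 69897688 to 69942945) shares 237 bases of exon with SNRNP27, a spliceosome gene that did not pass the threshold (20.8 ± 7.24 and 23.4 ± 1.07 CPM, log2 fold change 0.17). With the correction SNRNP27 was called lower, at -0.45 (edgeR adjusted p = 0.0203).

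MXI1, the MXD family member once called MAD2, had the lowest CPM of the members, at 1.97, 1.51 and 2.86 CPM in vehicle and 4.08, 4.39 and 4.26 CPM after treatment. The treated libraries were tightly grouped and all above the vehicle libraries, which differed among themselves by up to 1.90-fold. The rise was 2.0-fold (log2 fold change 1.00, SE 0.260, edgeR adjusted p = 0.0120). The call was lost without vehicle library 1 (0.95, edgeR adjusted p = 0.0502), and it was also lost after correcting for GC content and length (0.40, edgeR adjusted p = 0.107). MXI1 (ENSG00000119950) lies on the plus strand of chromosome 10, at 110207605 to 110287365.

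MXD3 and MXD4 moved the opposite way. MXD3, a family member that, unlike MXD1, is found in proliferating cells, was at 91.1, 108 and 71.8 CPM in vehicle and at 13.5, 20.8 and 12.4 CPM after treatment. No treated value came near a vehicle value. The fall was 5.80-fold, with means of 90.2 ± 17.9 and 15.5 ± 4.56 CPM (-2.54 on the log2 scale, SE 0.241, edgeR adjusted p = 1.65e-04), the largest fall of the members, and it was -2.12 with the correction. MXD3 (ENSG00000213347, chromosome 5, minus strand, 177301461 to 177312757) shares exon sequence with PRELID1 and RAB24, up to 1158 bases. PRELID1, a mitochondrial lipid transfer gene, was far more abundant and fell less, from 468 ± 108 to 313 ± 44.8 CPM (log2 fold change -0.58), and RAB24 went from 41.0 ± 4.16 to 27.0 ± 3.43 CPM (-0.60). Both signs turned with the correction, where PRELID1 did not pass, at 0.13 (edgeR adjusted p = 0.197), and RAB24 was called higher, at 0.28 (edgeR adjusted p = 0.0369). PRELID1 lies on the plus strand and RAB24, like MXD3, on the minus strand. The labels state neither whether counting used strand nor how reads in shared exons were assigned. Reads of either neighbour can therefore be part of the MXD3 count. The same applies to the other members that share exon sequence with a neighbour.

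MXD4, an MXD repressor of broad expression, was at 57.1, 76.9 and 46.1 CPM in vehicle and at 18.3, 28.4 and 26.3 CPM after treatment. The groups did not overlap although replicates varied by up to 1.67-fold. The fall was 2.46-fold (log2 fold change -1.30, SE 0.232, edgeR adjusted p = 0.00234). MXD4 is the most GC-rich member, at 64.0%, and with the correction its value was -0.67 (edgeR adjusted p = 0.00432). MXD4 (ENSG00000123933) spans 2247432 to 2262294 on the minus strand of chromosome 4.

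MNT, a large and broadly expressed MAX partner that opposes MYC, was at 27.1, 21.2 and 22.8 CPM in vehicle and at 22.5, 19.6 and 18.7 CPM after treatment. The groups overlapped. The difference did not pass the threshold (-0.22 on the log2 scale, SE 0.149, edgeR adjusted p = 0.232), and its sign was opposite with the GC and length correction (0.25, edgeR adjusted p = 0.222). MNT (ENSG00000070444) lies on the minus strand of chromosome 17, at 2384060 to 2401118. It shares 1065 bases of exon with AC006435.1 on the other strand.

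MGA, which joins a T-box to its MAX-binding region, was at 11.2, 8.59 and 11.5 CPM in vehicle and at 19.1, 15.6 and 15.4 CPM after treatment. All treated libraries lay above all vehicle libraries. The rise was 1.6-fold (log2 fold change 0.68, SE 0.171, edgeR adjusted p = 0.0110). The call was lost without treated library 1 (0.57, edgeR adjusted p = 0.0551). With the GC and length correction MGA was lower after treatment, at -0.41 (edgeR adjusted p = 0.0112), so the direction for this long, GC-poor transcript depends on that choice. MGA (ENSG00000174197) lies on chromosome 15, plus strand, at 41621224 to 41773081. It shares 510 bases of exon with AC073657.1 on the other strand.

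In the parallel branch, MLX was at 92.4, 98.4 and 77.4 CPM in vehicle and at 26.6, 32.9 and 29.2 CPM after treatment. The groups were far apart. MLX fell 3.02-fold, with means of 89.4 ± 10.8 and 29.6 ± 3.18 CPM (-1.6 on the log2 scale, SE 0.141, edgeR adjusted p = 1.30e-04), and was at -1.50 with the correction. MLX (ENSG00000108788, chromosome 17, plus strand, 42567068 to 42573239) shares 770 bases of exon with PSMC3IP, a recombination gene on the other strand that rose from 10.2 ± 0.540 to 26.6 ± 1.49 CPM (log2 fold change 1.39).

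MLXIP, the MondoA gene, was at 64.1, 67.5 and 56.2 CPM in vehicle and at 73.2, 71.1 and 71.4 CPM after treatment. The treated values were all above the vehicle values, but by little. The difference did not pass the threshold (0.20 on the log2 scale, SE 0.112, edgeR adjusted p = 0.162) and did pass with the GC and length correction (0.35, edgeR adjusted p = 0.00306). MLXIP (ENSG00000175727) lies on the plus strand of chromosome 12, at 122078722 to 122147347. The related gene MLXIPL, which encodes ChREBP, had 0 counts in every library, which allows up to 0.0329 to 0.0453 CPM per library for counting error alone.

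**Figure D2:**
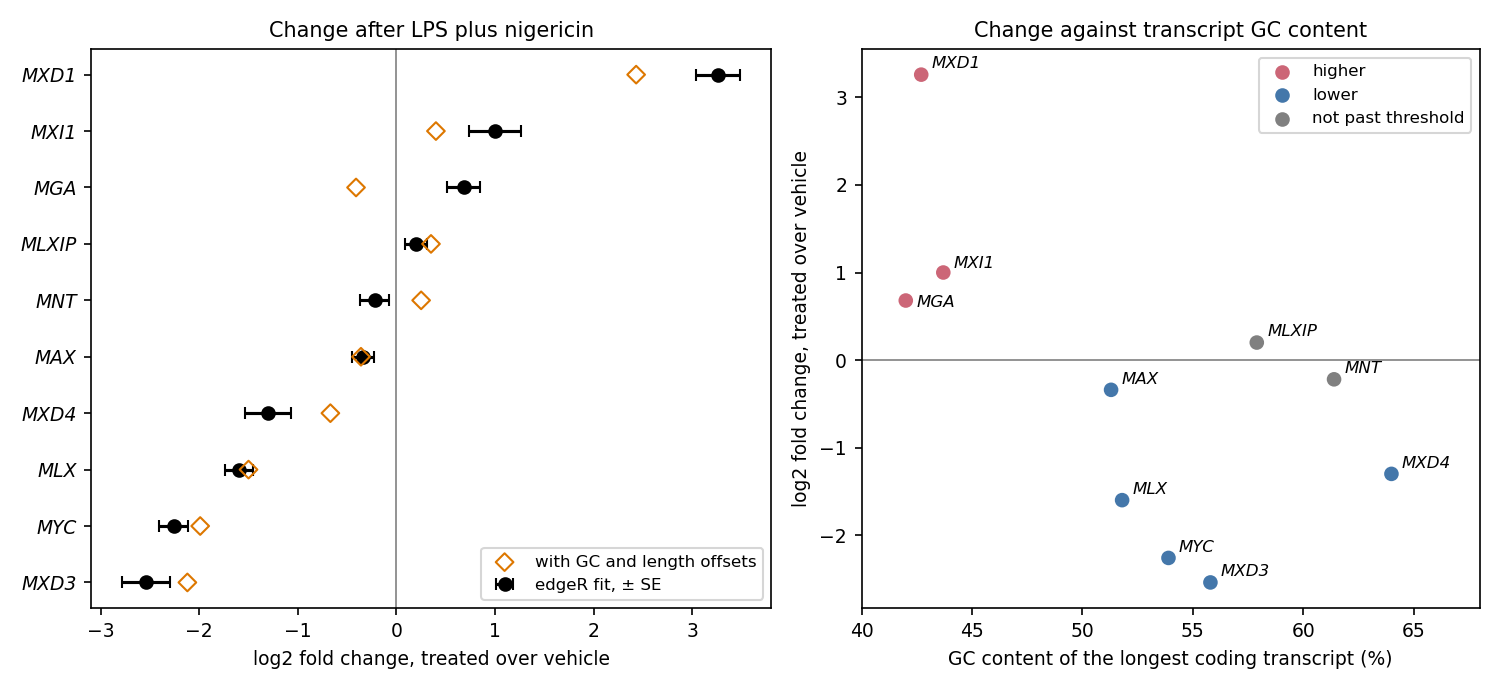
Left, log2 fold change of each member (treated over vehicle) with its SE from edgeR (black) and the value with GC content and length offsets (open diamonds). Right, the same edgeR values against the GC content in percent of each gene's longest coding transcript, where the 3 genes that rose are those at 42.0% to 43.7% and MGA is the member whose call changes sign with the offsets.

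The 3 members that rose were the 3 with the lowest transcript GC content, MGA at 42.0%, MXD1 at 42.7% and MXI1 at 43.7%. The members that fell ranged from MAX at 51.3% to MXD4 at 64.0%, against a median of 49.4% over 13871 tested genes with a coding transcript. The plot of changes against GC content shows both features of the set. MYC, MXD3, MXD4, MLX, MAX and MXD1 kept their direction and their call with the correction, while MXI1 lost its call and MGA its direction. With the correction 49.9% of all tested genes were called. The members' median was then -0.39, against -0.07 over all tested genes. Only the 13871 genes with a coding transcript were corrected, among them all 10 members. The figures over all 19170 tested genes thus mix corrected and uncorrected genes.

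The E-box is the element these proteins bind, so it was searched in the RefSeq promoters of the members, as the 250 bases before each start on GRCh38.p14. Promoters were found for 9 members, 14 in all, since MAX, MXI1 and MGA have several starts. That of MYC was not analysed here. CACGTG, which reads the same on both strands, was present in 3 of the 14, those of MXD4, MNT and MLX, against 6.34% of 35093 promoters. The looser form CANNTG was present in 7 of the 14, against 61.8% of all promoters. These matches describe the letters in the window and are not evidence of binding. The 3 promoters with CACGTG are shown because 2 of those genes fell and 1 did not pass, and that of MXD1 because MXD1 changed most. Each runs 5′ to 3′ on the gene's strand, and capitals mark every CANNTG, the canonical form included. The windows are chr2:69914859-69915108 (plus strand) for MXD1, chr4:2262110-2262359 (minus) for MXD4, chr17:2401061-2401310 (minus) for MNT and chr17:42566850-42567099 (plus) for MLX.
MXD1: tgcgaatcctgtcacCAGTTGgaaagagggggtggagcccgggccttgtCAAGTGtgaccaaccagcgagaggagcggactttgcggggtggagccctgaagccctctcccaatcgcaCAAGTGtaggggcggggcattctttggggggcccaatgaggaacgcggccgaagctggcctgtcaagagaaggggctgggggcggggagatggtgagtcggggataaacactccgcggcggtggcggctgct
MXD4: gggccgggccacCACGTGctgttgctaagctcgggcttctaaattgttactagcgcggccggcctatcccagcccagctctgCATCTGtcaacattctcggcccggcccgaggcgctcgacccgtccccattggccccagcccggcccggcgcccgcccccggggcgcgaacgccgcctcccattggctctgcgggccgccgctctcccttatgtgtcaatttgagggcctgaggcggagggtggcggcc
MNT: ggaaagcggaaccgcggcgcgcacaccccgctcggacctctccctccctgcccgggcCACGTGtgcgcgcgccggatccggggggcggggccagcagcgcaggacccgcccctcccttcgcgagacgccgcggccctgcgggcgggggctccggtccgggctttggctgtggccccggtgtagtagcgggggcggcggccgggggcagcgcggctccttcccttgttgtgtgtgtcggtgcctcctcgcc
MLX: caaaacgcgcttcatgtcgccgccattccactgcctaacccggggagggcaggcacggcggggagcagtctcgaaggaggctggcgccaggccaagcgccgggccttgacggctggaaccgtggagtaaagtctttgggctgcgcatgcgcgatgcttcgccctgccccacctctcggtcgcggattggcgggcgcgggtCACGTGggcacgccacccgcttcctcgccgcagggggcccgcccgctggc
The CACGTG began 238 bases before the start in MXD4, 193 in MNT and 50 in MLX. The MXD1 window held 3 CANNTG and no CACGTG.

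Levels of different genes were compared as CPM per kb of merged exon. In vehicle, MYC led with 21.6 ± 3.17, followed by MLX with 21.0 ± 2.53 and MXD3 with 17.5 ± 3.47 CPM per kb, and the values of neighbours in this order overlapped. MAX at 9.56 ± 0.263 and MXD4 at 8.51 ± 2.22 CPM per kb came next and overlapped each other, then MLXIP at 4.50 ± 0.418 and MNT at 2.71 ± 0.352. MGA, MXD1 and MXI1 were lowest, at 0.591 ± 0.0911, 0.479 ± 0.127 and 0.459 ± 0.149 CPM per kb, with overlapping values. MYC was thus among the most abundant of the network RNAs in untreated T24 cells, and MXD1 and MXI1 among the least.

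After treatment the order was different. MAX, at 7.56 ± 0.218 CPM per kb, and MLX, at 6.95 ± 0.747, led and overlapped, followed by MLXIP at 5.17 ± 0.0830. MXD1 at 4.58 ± 0.411 and MYC at 4.52 ± 0.0793 CPM per kb could not be ranked against each other. MXD4 and MXD3 followed at 3.45 ± 0.753 and 3.01 ± 0.884 CPM per kb, MNT at 2.32 ± 0.227, and MGA and MXI1 were lowest at 0.945 ± 0.117 and 0.921 ± 0.0334. With the longest coding transcript as the length instead of merged exons, MXD3 led in vehicle (39.7 ± 7.88 CPM per kb) and MLX after treatment (11.4 ± 1.23). MXD3 overlapped MLX in vehicle, and MLX overlapped MAX after treatment. On this length MYC ranked 3 in vehicle, at 27.4 ± 4.02 CPM per kb, with all values below those of MXD3. After treatment MYC ranked 6, at 5.73 ± 0.101, and overlapped its neighbours.

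The balance among the MAX partners MYC, MXD1, MXD3, MXD4, MXI1, MNT and MGA was described by the share of each in their summed CPM per kb. These shares describe RNA and not protein, and they carry no test because the members were chosen with their changes known. MYC made up 43.9%, 33.7% and 48.0% of the sum in the vehicle libraries and 23.0%, 21.7% and 24% in the treated libraries. MXD1 made up 0.954%, 0.631% and 1.21% in vehicle and 26.2%, 21.0% and 22.6% after treatment. MXD3, the other main partner in vehicle, went from 33.6 ± 5.13% to 15.1 ± 3.41%, whereas MXD4 kept a similar share, at 16.3 ± 3.67% and 17.4 ± 3.43%. MNT made up 5.24 ± 0.617% in vehicle and 11.8 ± 1.44% after treatment, although its own level did not pass the test, because the sum itself was smaller.

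The summed level of these partners was 51.8 ± 3.41 CPM per kb in vehicle and 19.8 ± 1.25 after treatment. Relative to MAX, the sum was 5.71, 5.71 and 4.87 in the vehicle libraries and 2.63, 2.79 and 2.43 in the treated libraries. The ratio of MYC to MXD1 was 46.0, 53.3 and 39.5 in vehicle and 0.878, 1.03 and 1.06 after treatment, so per exon length the RNAs were about equal after treatment. The ratio of MLXIP to MLX was 0.212, 0.210 and 0.222 in vehicle and 0.843, 0.662 and 0.749 after treatment. Each of these ratios separated the groups in these 6 libraries, and a scale factor common to all genes of a library cancels in them. The GC and length correction was not applied to these shares and ratios.

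**Figure D3:**
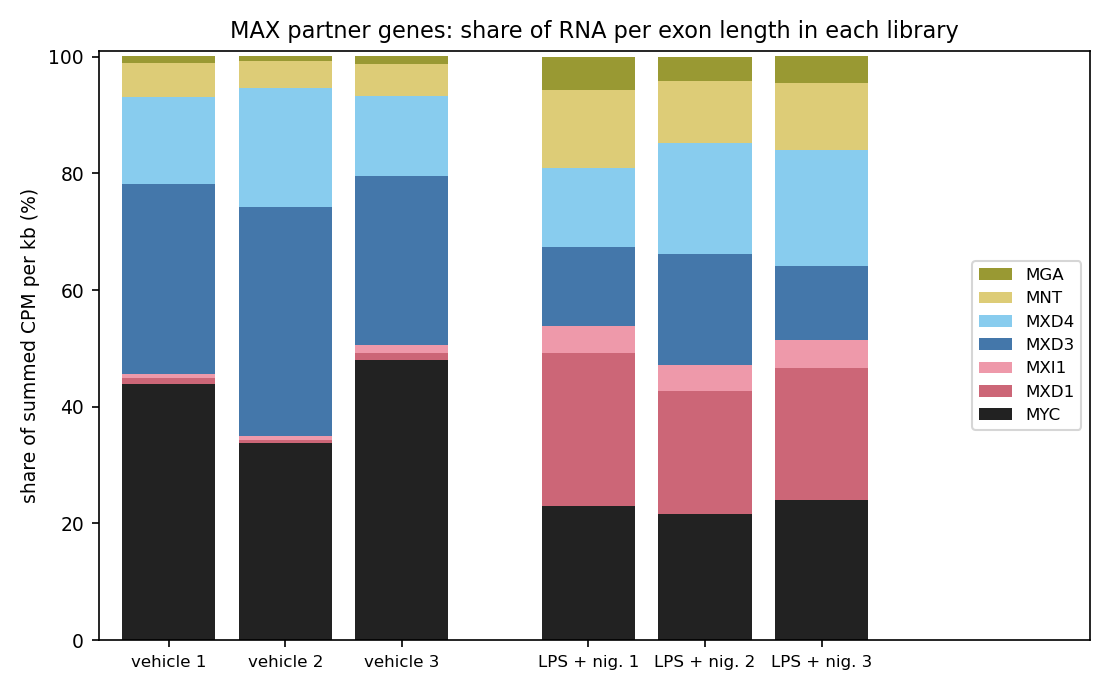
Share of each MAX partner gene in their summed CPM per kb of merged exon (vertical axis, percent) in each library, with vehicle libraries on the left and LPS plus nigericin libraries on the right. MYC takes 33.7% to 48.0% of the bar in vehicle and 21.7% to 24% after treatment, and MXD1 0.631% to 1.21% and 21.0% to 26.2%.

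Genes around the network were described in lists, chosen with earlier results of these data known. The shares over all tested genes given beside them were not matched to the lists for RNA level. Of the 150 tested list genes that are not members, 61 were higher and 45 lower. As background, MYC is known to activate many genes of ribosome production, nucleotide synthesis and the cycle. Of 57 tested MYC-activated targets, 21 rose, 25 fell and 11 did not pass, so 80.7% were called against 55.3% of all tested genes, in both directions. Their median log2 fold change was -0.36, against 0.00 over all tested genes, and 0.14 with the GC and length correction. NOLC1, a nucleolar phosphoprotein, rose from 62.4 ± 3.87 to 223 ± 12.5 CPM (log2 fold change 1.84, edgeR adjusted p = 3.22e-05). TFRC, the transferrin receptor, rose from 96.1 ± 11.5 to 301 ± 31.2 CPM (1.65, or 0.76 with the correction). WDR74, a factor of large ribosomal subunit assembly, fell from 146 ± 28.8 to 39.1 ± 3.56 CPM (-1.90), and RRS1, another ribosome assembly factor, fell from 31.2 ± 4.96 to 12.5 ± 1.05 CPM (-1.32).

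Of 22 tested genes that MYC is known to repress, 12 rose, 2 fell and 8 did not pass. That is 63.6% called, against 55.3% of all tested genes, of which 28.9% were higher and 26.4% lower. The list's median was 0.69, and 0.38 with the correction. GADD45B, a stress-induced growth arrest gene, was at 29.5, 28.8 and 22.5 CPM in vehicle and 182, 234 and 209 CPM after treatment (log2 fold change 2.95, or 3.63 with the correction). BTG2, an antiproliferative gene, rose from 1.21 ± 0.638 to 19.9 ± 0.426 CPM (4.03, SE 0.391, edgeR adjusted p = 1.81e-04). The listed genes that fell encode CDK inhibitors, CDKN2C from 56.6 ± 1.69 to 15.7 ± 1.89 CPM (-1.85) and CDKN1B, which encodes p27, from 19.3 ± 4.81 to 9.84 ± 1.11 CPM (-0.97). Other CDK inhibitor genes of the list did not fall. CDKN1A rose from 184 ± 28.9 to 302 ± 12.6 CPM (0.72) and CDKN1C from 1.62 ± 0.343 to 3.05 ± 0.468 CPM (0.92, or 1.71 with the correction). CDKN2B did not pass, at 0.24, or -0.37 with the correction (edgeR adjusted p = 0.0778).

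Among 15 MYC coactivators, 5 rose, 6 fell and 4 did not pass. That is 73.3% called, against 55.3% of all tested genes. Their median was -0.12, or 0.10 with the correction. CDK9, the kinase of the elongation factor P-TEFb, fell from 94.9 ± 13.8 to 32.6 ± 2.15 CPM (-1.54), while its cyclin CCNT1 rose from 13.2 ± 3.07 to 42.5 ± 4.32 CPM (1.68, or 0.70 with the correction). KAT5, the TIP60 acetyltransferase, fell from 109 ± 13.8 to 39.6 ± 2.89 CPM (-1.46, or -0.88 with the correction), and HCFC1, a chromatin-associated host cell factor, rose from 102 ± 12.3 to 217 ± 26.9 CPM (1.09). The RNAs of CDK9 and CCNT1 therefore changed in opposite directions.

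The SIN3 corepressor, which the MXD proteins recruit, showed no common direction. Of its 16 genes, 7 were called higher and 3 lower while 6 did not pass. That is 62.5% called, against 55.3% of all tested genes. The median was 0.13, and -0.02 with the correction. With the correction 3 rose and 7 fell, where 49.9% of all tested genes were called. The scaffold genes SIN3A and SIN3B did not pass, at -0.06 and -0.27. With the correction SIN3A was called lower, at -0.68 (edgeR adjusted p = 4.76e-04), and SIN3B was at 0.15 (edgeR adjusted p = 0.260). ARID4B, a SIN3-associated subunit, rose from 5.31 ± 1.67 to 39.0 ± 11 CPM (2.88, or 1.88 with the correction), and SAP18 from 94.7 ± 8.27 to 150 ± 3.91 CPM (0.66, but 0.05 with the correction, edgeR adjusted p = 0.666). ING1 fell from 15.9 ± 1.89 to 6.57 ± 1.14 CPM (-1.28).

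Among 19 genes that set MYC protein stability, 8 rose, 6 fell and 5 did not pass. That is 73.7% called, against 55.3% of all tested genes. Their median was 0.42, or -0.01 with the correction. USP36, a nucleolar deubiquitinase that stabilises MYC, rose from 35.4 ± 1.71 to 91.4 ± 6.91 CPM (1.37), and FBXO32, an E3 ligase subunit, from 2.34 ± 0.178 to 8.23 ± 1.16 CPM (1.81, or 0.93 with the correction). SKP2, an F-box protein that ubiquitinates MYC, fell from 23.9 ± 3.44 to 10.3 ± 0.741 CPM (-1.22, or -2.0 with the correction), and the mitotic kinase PLK1 from 469 ± 65.5 to 158 ± 12.2 CPM (-1.56).

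Of 14 genes of the Polycomb complex that contains MGA, 6 rose, 3 fell and 5 did not pass. That is 64.3% called, against 55.3% of all tested genes. The median was 0.58, but -0.10 with the correction. With the correction 2 rose and 5 fell, where 49.9% of all tested genes were called. RYBP rose from 8.62 ± 3.52 to 37.6 ± 2.55 CPM (2.12, or 1.16 with the correction) and CBX1, a heterochromatin protein, from 65.2 ± 9.87 to 124 ± 4.07 CPM (0.92). L3MBTL2, a methyl-lysine reader, fell from 77.4 ± 7.29 to 45.1 ± 0.721 CPM (-0.78, or -0.41 with the correction), as did WDR5, from 87.6 ± 4.0 to 50.7 ± 5.10 CPM (-0.79, or -0.46). Of the 9 tested targets of MLX and MondoA, 3 rose, 1 fell and 5 did not pass, so that 44.4% were called against 55.3% of all tested genes, with a median of 0.44, or 0.24 with the correction. TXNIP, a well-known target of both, did not pass, at 0.44, or -0.11 with the correction (edgeR adjusted p = 0.619). ACACA, the acetyl-CoA carboxylase of fatty acid synthesis, rose from 51.8 ± 1.17 to 91.9 ± 9.94 CPM (0.83, or 0.23 with the correction), and PFKFB3, a glycolytic regulator, from 12.5 ± 2.88 to 19.3 ± 0.308 CPM (0.62, edgeR adjusted p = 0.0222). The PFKFB3 call was lost with library totals, without vehicle library 1 and without treated library 1, 2 or 3 (edgeR adjusted p = 0.0856, 0.0539, 0.0731, 0.0636 and 0.0695). ARRDC3, an arrestin domain gene, fell from 8.30 ± 3.24 to 2.86 ± 0.385 CPM (-1.53, or -2.42 with the correction). Of the 28 genes that the naming rule takes from the lists, 11 overlap the exons of another annotated gene by 50 bases or more, KAT5, CDK9, ARID4B, PLK1 and WDR74 among them, as do 8 of the 10 members.

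**Figure D4:**
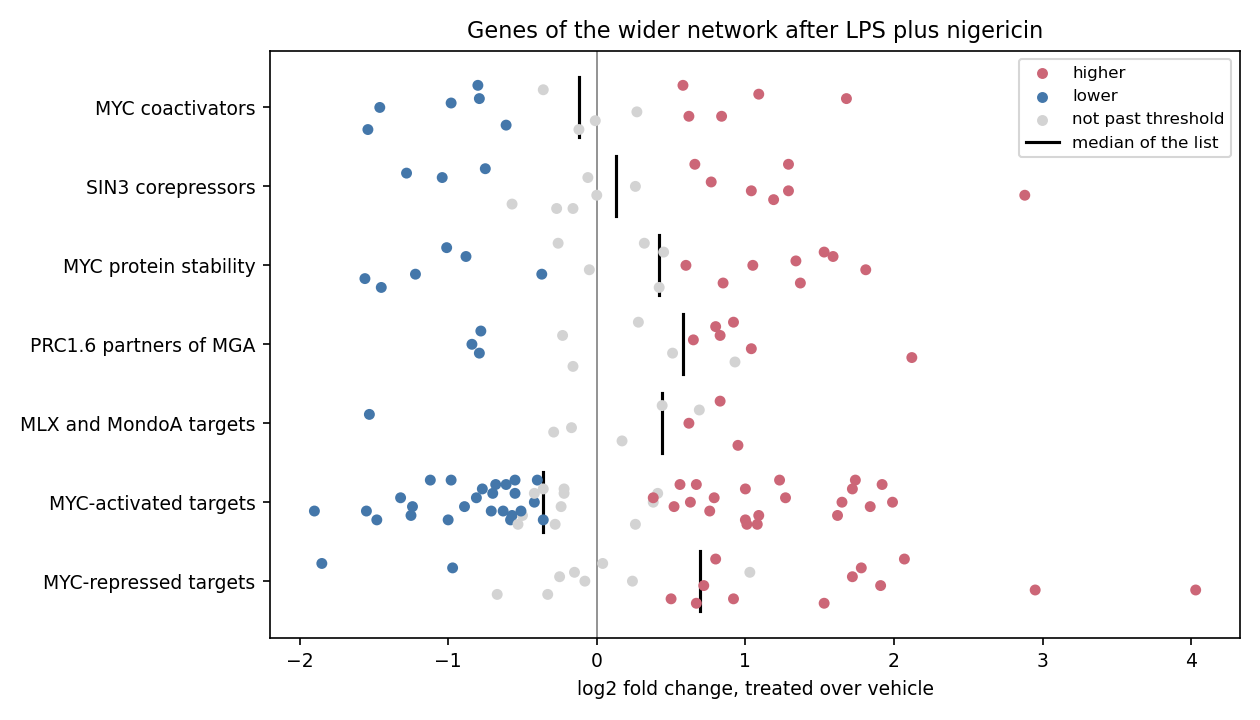
Log2 fold change of every tested gene in 7 lists (horizontal axis, treated over vehicle), coloured by call, with the list median as a black bar. MYC-activated targets lie on both sides of 0, with 21 higher and 25 lower, and 12 of 22 MYC-repressed targets are higher.

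The genes whose log2 CPM followed MYC most closely over the 6 libraries, among 6702 genes averaging 20 CPM or more, were CBR1, LMNB2, HOXB6, FAM32A and MID1IP1, with Pearson r of 0.9994, 0.9993, 0.9985, 0.9983 and 0.9981. Likeness of shape does not mean likeness of size, since LMNB2 changed by -0.35 on the log2 scale and HOXB6 by -1.80. For MXD1, among 6703 genes, they were PITHD1, SFPQ, RSRC2, KDM6B and P4HA1, with r of 0.9995 or above. The libraries form groups of 3, so r is high for any gene that differs between the groups and varies little within them. In all, 650 genes correlated with MYC above 0.95 and 1685 with MXD1.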

How the data were processed

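The members and gene lists were chosen with earlier results of these data known. The authors deposited raw counts per Ensembl gene for 6 libraries, per the file headers, on hg38 per the submitters' processing notes. Neither the labels nor the headers give the aligner, counting tool, annotation release or strand setting. Columns were matched to samples by library name, and 37840 of 37871 identifiers had a symbol. A symbol with several identifiers went to the most counted. Genes were filtered with filterByExpr, scaled with TMM and tested with edgeR 4.0.16 (R 4.3.3, robust quasi-likelihood F test, group as the only term, Benjamini-Hochberg adjustment at 0.05). Standard errors were obtained from the fold change and the F statistic. Positions, exon lengths and GC content came from GENCODE 29, and promoters from RefSeq on GRCh38.p14. No protein sequences were used here.

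Alternatives were RLE factors, library totals, DESeq2 1.42.0, limma-voom (limma 3.58.1), no count filter, 1 CPM in 3 libraries, the replicate block, a fit without mitochondrial and rRNA genes, loess offsets for GC content and length (span 0.3, prior count 2), and leaving out each library. Library totals were 66180407 to 89152224 counts. Chi-square values per degree of freedom between replicates, pooled over genes, were 22.6 to 187. For the pooled genes, counting error was thus small beside the spread between libraries. Abundant genes weigh most in this value, so it does not show the same for a single member. Scripts were tested on simulated data. All members are named. From each list, the 2 genes with the smallest p in each direction among called genes whose higher group averaged 5 CPM or more are named, and every gene of lists with 8 or fewer names. One gene that this rule names is not reported here. SIN3A, SIN3B, TXNIP, CDKN1A, CDKN1C, CDKN2B and the cell type markers named singly were named after their values were seen. Python 3.11.15 drew the figures.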

Additional observations from a re-analysis of the deposited data

How the results depend on the processing

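MYC, MXD1, MXD3, MXD4 and MLX kept their direction and their call under every alternative run. For MAX the fold change was -0.35 on the log2 scale with no count filter and -0.34 with the replicate block (edgeR adjusted p = 0.0528 and 0.0661), and -0.36 to -0.32 over the fits that leave out 1 library. MXI1 ranged from 0.81 to 1.27 and MGA from 0.55 to 0.74 over those fits. With GC content and length offsets MXI1 was at 0.40 and MLXIP at 0.35, while MNT at 0.25 and MGA at -0.41 changed sign. The cause was not tested. With the longest coding transcript as length, MYC made up 31.3% of the partner sum in vehicle and 19.0% after treatment, against 41.9% and 22.9%, because the lengths themselves differ. Of the lists, the SIN3 genes that fell numbered 5 with DESeq2, the stricter filter or without vehicle library 2, against 3. With the offsets 3 SIN3 genes rose and 7 fell, against 7 and 3, and 2 Polycomb genes rose and 5 fell, against 6 and 3. In the partner and paralog list 1 gene rose with the offsets or without vehicle library 1, against 2. The MLX and MondoA targets that fell numbered 2 with DESeq2, against 1, and those that rose 1 without treated library 3, against 3. The deviations of same-numbered libraries had Pearson r across genes of -0.0231, 0.0956 and -0.0236. Those of differently numbered libraries ranged from -0.1007 to 0.1224. Whether same-numbered libraries shared a culture or batch was not tested. Apart from MAX, the block changed no member's call. MYCN, MYCL and MLXIPL were near 0. MYCN and MLXIPL had too few counts to be tested, and the log2 fold change of MYCL had an SE of 0.764.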
